A study of Mus musculus with 75 samples.

Results

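Atrogin-1 (Fbxo32, ENSMUSG00000022358), MuRF1 (Trim63, ENSMUSG00000028834) and 3 related F-box genes, Fbxo30 (ENSMUSG00000047648), Fbxo31 (ENSMUSG00000052934) and Fbxo21 (ENSMUSG00000032898), were followed in the gastrocnemius of mice with and without C26 tumours. The 5 genes were taken by symbol from the 13856 genes of the deposited expression table, and all 5 were present and tested. In tumour-bearing males Fbxo32, Trim63 and Fbxo31 rose, and in females the same 3 genes had higher means without passing the test. Levels in drug-treated tumour hosts lay below those of saline-treated tumour hosts, by an amount that passed the test for some of these genes and drugs.

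The study sequenced RNA from gastrocnemius, a calf muscle, of female and male BALB/c mice in 5 arms. Mice of the PBS saline arm received an injection of phosphate-buffered saline in place of tumour cells and saline as the vehicle. Mice of the 4 other arms received 1000000 cells of C26, a mouse colon carcinoma line whose tumours are used as a model of cachexia. These tumour hosts were given saline, 5-fluorouracil, paclitaxel or cisplatin from day 12 in 2 cycles with 2 injections per week, at 75% of the dose named as maximally tolerated, and muscle was collected from every arm at day 25. The drugs differ in action: 5-fluorouracil disturbs pyrimidine synthesis, paclitaxel holds microtubules in place and cisplatin crosslinks DNA. No group used here received a drug without a tumour, and the age of the mice is not given in the sources used here. The female groups held 7 PBS saline, 7 C26 saline, 8 C26 5-fluorouracil, 7 C26 paclitaxel and 6 C26 cisplatin libraries. The male groups held 8, 8, 8, 6 and 8 in the same order, which made 73 libraries in all. Another female library, titled as C26 saline but labelled as treated with 5-fluorouracil, was put in no group.

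Ubiquitin ligases (E3 enzymes) choose the proteins that are tagged with ubiquitin and then degraded by the proteasome. MuRF1 is a RING finger ligase of the sarcomere that binds myosin and other thick filament proteins, and is not an F-box protein. Atrogin-1, Fbxo30 (also called MUSA1), Fbxo31 and Fbxo21 are F-box proteins, the substrate-binding subunits of SCF ligases, in which the adaptor SKP1 joins them to the cullin CUL1 and the RING protein RBX1. Fbxo32 and Trim63 are the most widely used transcript markers of muscle atrophy and are direct targets of FoxO transcription factors, with Trim63 also bound by the glucocorticoid receptor. Fbxo30 is held down by BMP and SMAD signalling and rises after denervation, while Fbxo31 is also known for the degradation of cyclin D1 after DNA damage.

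The promoters were read because Fbxo32 and Trim63 varied together and Fbxo31 rose with them. RefSeq promoter windows (build GRCm38.p6) were found for 4 of the 5 genes, with no entry for Fbxo32. The 250 bases before the start of Trim63 and of Fbxo31 are shown, both 5′ to 3′ on the gene's own strand, at chr4:134314870-134315119 (plus strand) and chr8:121578807-121579056 (minus strand). Capitals mark a match to the glucocorticoid receptor hexamer AGAACA, here as TGTTCT, followed with no base between by a match to the FoxO motif GTAAACA, here as TGTTTAC.
Trim63: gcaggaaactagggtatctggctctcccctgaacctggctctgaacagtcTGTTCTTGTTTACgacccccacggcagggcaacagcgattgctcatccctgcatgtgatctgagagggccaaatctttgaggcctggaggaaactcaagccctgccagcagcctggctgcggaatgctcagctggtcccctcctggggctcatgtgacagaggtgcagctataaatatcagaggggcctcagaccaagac
Fbxo31: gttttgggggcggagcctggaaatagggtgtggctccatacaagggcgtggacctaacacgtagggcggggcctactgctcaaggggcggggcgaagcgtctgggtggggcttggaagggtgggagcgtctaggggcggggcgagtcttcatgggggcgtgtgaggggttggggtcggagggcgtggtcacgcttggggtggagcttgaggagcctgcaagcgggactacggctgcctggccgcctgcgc
In Trim63 the hexamer lay at -200 to -195 and the FoxO motif at -194 to -188 from the start. Searched on both strands of 32851 mouse promoter windows of the same length, the FoxO motif was found in 3.17%, the hexamer in 16.1% and both in 0.691%. Both lay next to each other with no base between in 4 windows (0.0122%). That arrangement is the one seen in Trim63, which meets it by construction, so the share is a description only. The windows of Fbxo31, Fbxo30 and Fbxo21 held neither string of letters. With no window for Fbxo32, the part of these motifs in its shared variation with Trim63 was not tested. The windows also differed in GC content, which was 56.8% for Trim63, 68% for Fbxo31, 80.4% for Fbxo30 and 62% for Fbxo21.

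The depth, estimated by turning the log2 values back into counts, was 11.4 to 40.5 M counts per library with a median of 22.5 M. Per library the estimated count ran from 1832 to 78126 for Fbxo32, from 2368 to 91221 for Trim63, from 2436 to 23531 for Fbxo31, from 265 to 945 for Fbxo21 and from 28 to 345 for Fbxo30, so counting error weighs most on Fbxo30. All 8 skeletal muscle marker genes were measured, and their summed level on the linear scale (CPM, counts per 1000000 of the authors' scaled library size) ran from 93020 to 288154 over the libraries. In 19 libraries the genes' deviations from their means leaned on transcript GC content by a slope above 0.1 log2 units per SD of GC content, 4 of them among the 6 male paclitaxel libraries and 4 among the 8 male 5-fluorouracil libraries. Fewer cells of a type and less RNA per cell cannot be told apart in these whole-muscle samples.

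In tumour-free muscle the members spanned a wide range of abundance. Per kilobase of their longest coding transcript, the level in female PBS muscle was 130 ± 30.5 CPM for Trim63 (SD, n = 7), 45.5 ± 8.43 for Fbxo31, 28.8 ± 5.65 for Fbxo32, 5.59 ± 0.64 for Fbxo21 and 1.62 ± 0.40 for Fbxo30. Male PBS muscle gave 144 ± 27.6 for Trim63 (SD, n = 8), 41.1 ± 7.97 for Fbxo31, 40.3 ± 7.66 for Fbxo32, 6.88 ± 1.09 for Fbxo21 and 1.67 ± 0.40 for Fbxo30. The sarcomere ligase MuRF1 thus had the most transcript per length in both sexes, and Fbxo30 the least. The order of Fbxo31 and Fbxo32 in males rested on a difference far below the SD. Values of the members from here on are log2 expression values as deposited, or differences between them, unless CPM or a linear ratio is named, and are compared within a gene only.

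**Figure D1:**
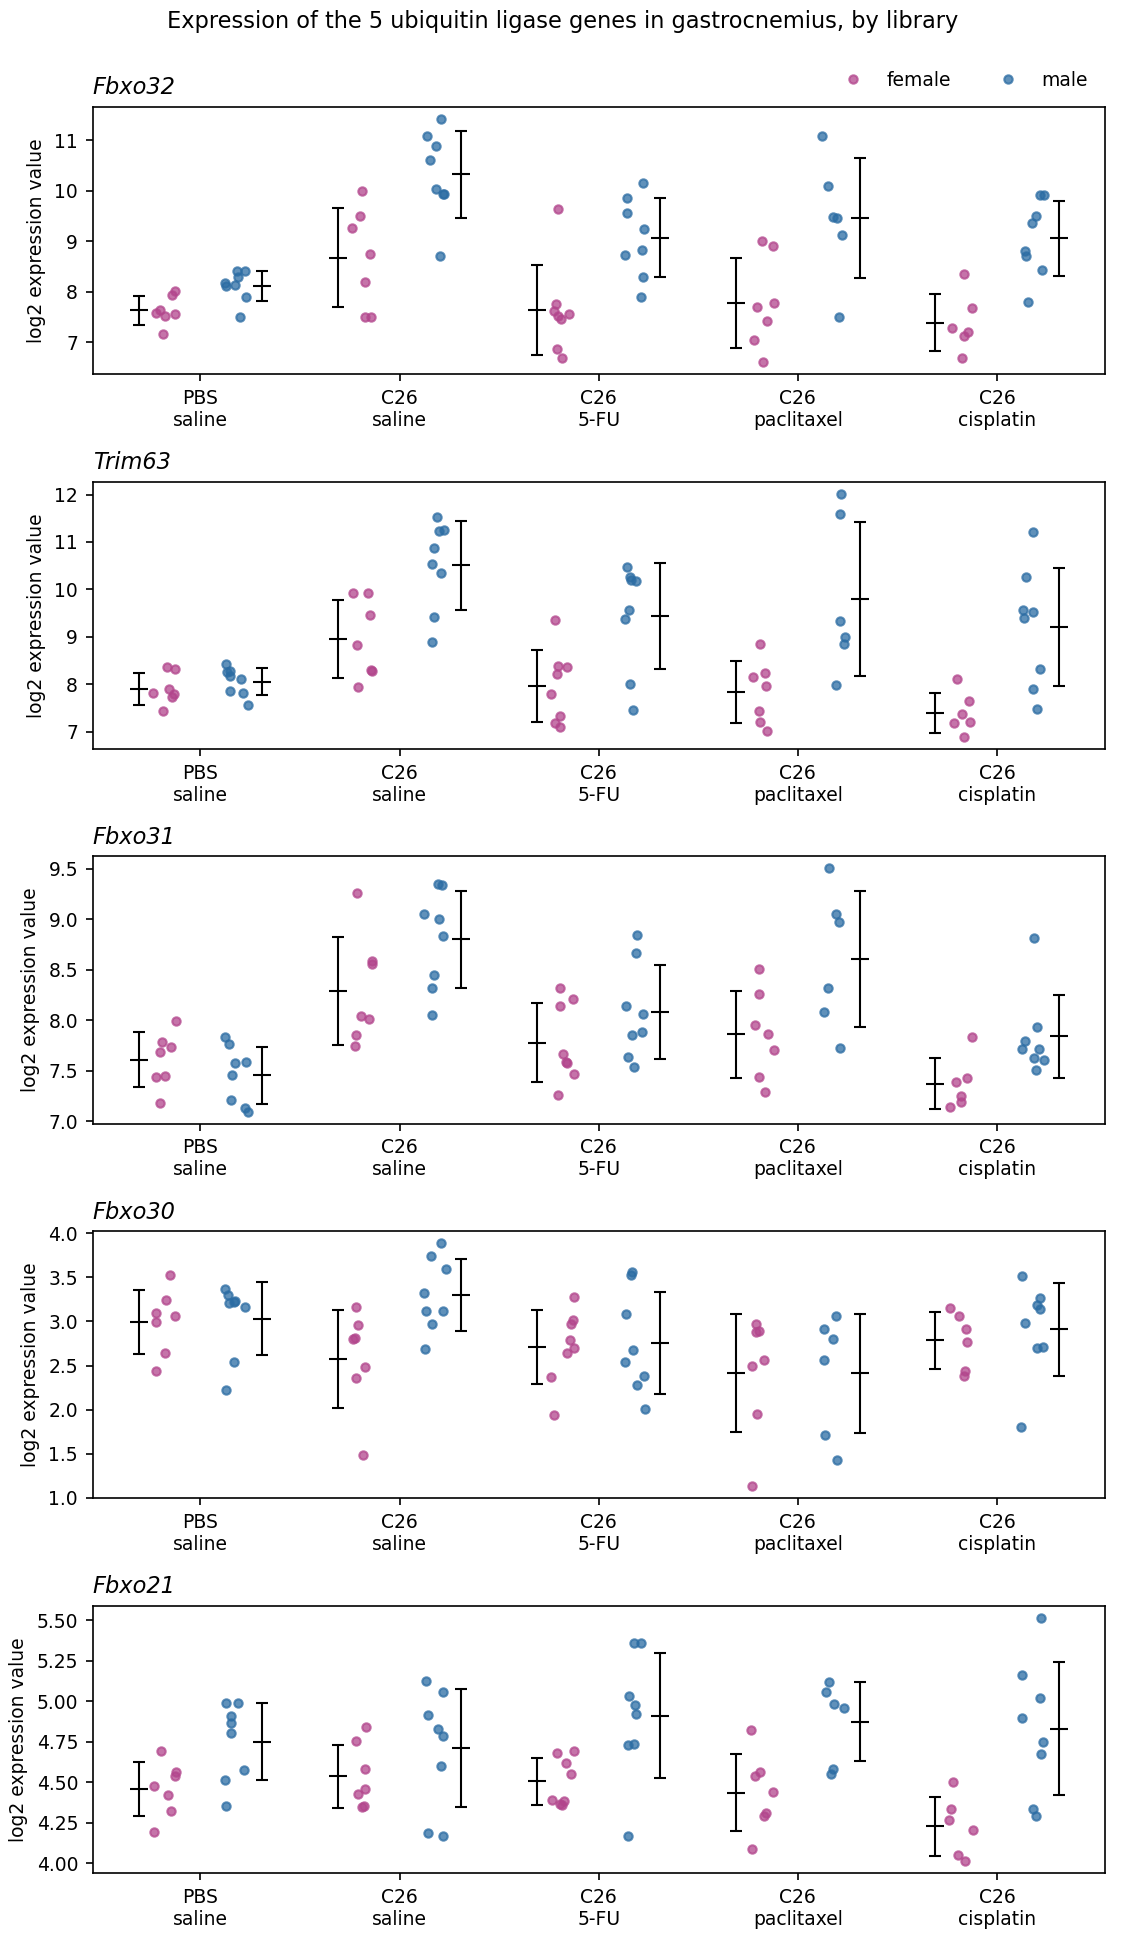
Log2 expression value of each of the 5 genes (vertical axis) in the 5 arms (horizontal axis), with 1 point per library, females in magenta and males in blue, and black bars for mean ± SD. All 8 male C26 saline libraries lie above all 8 male PBS libraries for Fbxo32, Trim63 and Fbxo31, and the female groups overlap.

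Atrogin-1 transcript was highest in saline-treated tumour-bearing males. Fbxo32 lay at 7.49, 8.14 and 8.41 (lowest, median and highest of 8) in male PBS muscle and at 8.70, 10.32 and 11.42 in male C26 saline muscle. Every tumour library was above every PBS library. The rise was 2.21 ± 0.38 log2 units (SE), or 4.64-fold, with an adjusted p of 7.23e-06 in limma. MuRF1 moved in the same way. Trim63 lay at 7.56, 8.14 and 8.43 in male PBS muscle and at 8.89, 10.70 and 11.53 in male C26 saline muscle, again with no overlap. Its rise was 2.45 ± 0.44 log2 units, or 5.47-fold (limma adjusted p = 1.32e-05).

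Fbxo31 rose less but with a smaller spread. It lay at 7.10, 7.51 and 7.83 in male PBS muscle and at 8.06, 8.92 and 9.35 in male C26 saline muscle, and the groups did not overlap. The rise was 1.34 ± 0.21 log2 units, or 2.54-fold (limma adjusted p = 1.13e-06). Fbxo30, the ligase held down by BMP signalling, had means of 3.03 ± 0.41 in male PBS and 3.31 ± 0.41 in male C26 saline muscle (SD), a difference of 0.27 ± 0.25 (adjusted p = 0.458). Fbxo21 differed by -0.04 ± 0.14 (adjusted p = 0.869), with a 95% interval of -0.32 to 0.24. So 3 of the 5 genes rose in males, where 13.1% of all genes rose and 26.1% changed in either direction. Those 3 were also the members whose groups did not overlap, which held for 2.74% of all genes in the upward direction. Across 25 settings, counting the deposited one, the rise stayed between 2.06 and 2.45 for Fbxo32, 2.31 and 2.68 for Trim63 and 1.27 and 1.49 for Fbxo31, with adjusted p at most 8.65e-05.

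In females the same 3 genes had higher means in tumour hosts, and none of the 5 passed the test. Fbxo32 lay at 7.15, 7.58 and 8.02 in female PBS muscle and at 7.49, 8.74 and 9.99 in female C26 saline muscle. Of the 7 tumour libraries, 5 were above every PBS library, and replicates 2 and 7 stayed at 7.51 and 7.49. The difference was 1.04 ± 0.41, or 2.05-fold (limma adjusted p = 0.125). Trim63 lay at 7.43, 7.82 and 8.36 in female PBS muscle and at 7.95, 8.82 and 9.93 in female C26 saline muscle, with 4 of 7 tumour libraries above all PBS libraries. Its difference was 1.05 ± 0.47 (adjusted p = 0.195). Fbxo31, at 7.18, 7.69 and 7.99 against 7.75, 8.04 and 9.26, came closest, with a difference of 0.68 ± 0.23 and an adjusted p of 0.0523. Fbxo30 differed by -0.42 ± 0.26 (adjusted p = 0.412) and Fbxo21 by 0.08 ± 0.15 (adjusted p = 0.848).

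The count of 0 of 5 in females stood against 6.7% of all genes called, and unadjusted p values under 0.05 were reached by 2611 genes. It depended on the setting. Fbxo31 passed with quantile normalization (0.67, adjusted p = 0.0178), with quality weights (0.63, adjusted p = 0.00523), with the slope on GC content among the terms (0.63, adjusted p = 0.00832), on the libraries of low slope alone (0.75, adjusted p = 0.0102), and without PBS replicate 5 (0.75, adjusted p = 0.0441) or C26 saline replicate 2 (0.78, adjusted p = 0.0324) or 4 (0.76, adjusted p = 0.0321). Fbxo32 passed with quality weights (1.11, adjusted p = 0.0218), and Trim63 with quality weights (1.05, adjusted p = 0.0459) and with only the groups compared in the fit (1.05, adjusted p = 0.0412).

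Whether the tumour raised the genes more in males was tested as an interaction. The tumour difference was larger in males than in females by 1.18 ± 0.56 for Fbxo32 (unadjusted p = 0.0399), 1.40 ± 0.64 for Trim63 (unadjusted p = 0.0326) and 0.66 ± 0.31 for Fbxo31 (unadjusted p = 0.0372). After adjustment over all genes the limma p values were 0.577, 0.568 and 0.568, so 0 of 5 members were called, where 0.0361% of all genes were called. With quality weights the interaction of Fbxo31 was 0.87 (adjusted p = 0.0321).

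Markers of some other cell types moved with the tumour as well. The summed level of the 7 measured neutrophil markers had a median of 2.53 CPM (range 2.07 to 11.9) in male PBS muscle and 26.4 (10.1 to 32.9) in male C26 saline muscle, and of 1.78 (1.04 to 3.26) and 11.6 (4.85 to 35.7) in females. Ly6g, a defining neutrophil gene, is not among the genes of the table. The 8 macrophage markers had medians of 51.8 (37.5 to 64.7) and 104 (58.7 to 159) in males and 59.8 (39.2 to 83.7) and 112 (80.4 to 158) in females. Only 3 of 8 carcinoma markers were in the table, and their sum reached at most 4.73 CPM in any library, a value found in male PBS muscle. The 6 satellite cell markers had medians of 31.2 (28.8 to 32.5) and 45.8 (34.0 to 53.0) in males, with no overlap, and of 34.3 (29.3 to 44.9) and 47.8 (34.4 to 63.2) in females. The skeletal muscle sum had medians of 160444 and 121158 in males. For endothelial markers the medians in PBS and C26 saline muscle were 251 and 232 in males and 251 and 244 in females. Fibroblast markers gave 695 and 485 in males and 600 and 540 in females. Adipocyte markers gave 206 and 269 in males and 271 and 333 in females, and erythroid markers 1053 and 1419, and 347 and 732. The ranges of these sums overlapped between PBS and C26 saline muscle in both sexes. The part of these cell types in the members' changes was not tested.

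**Figure D2:**
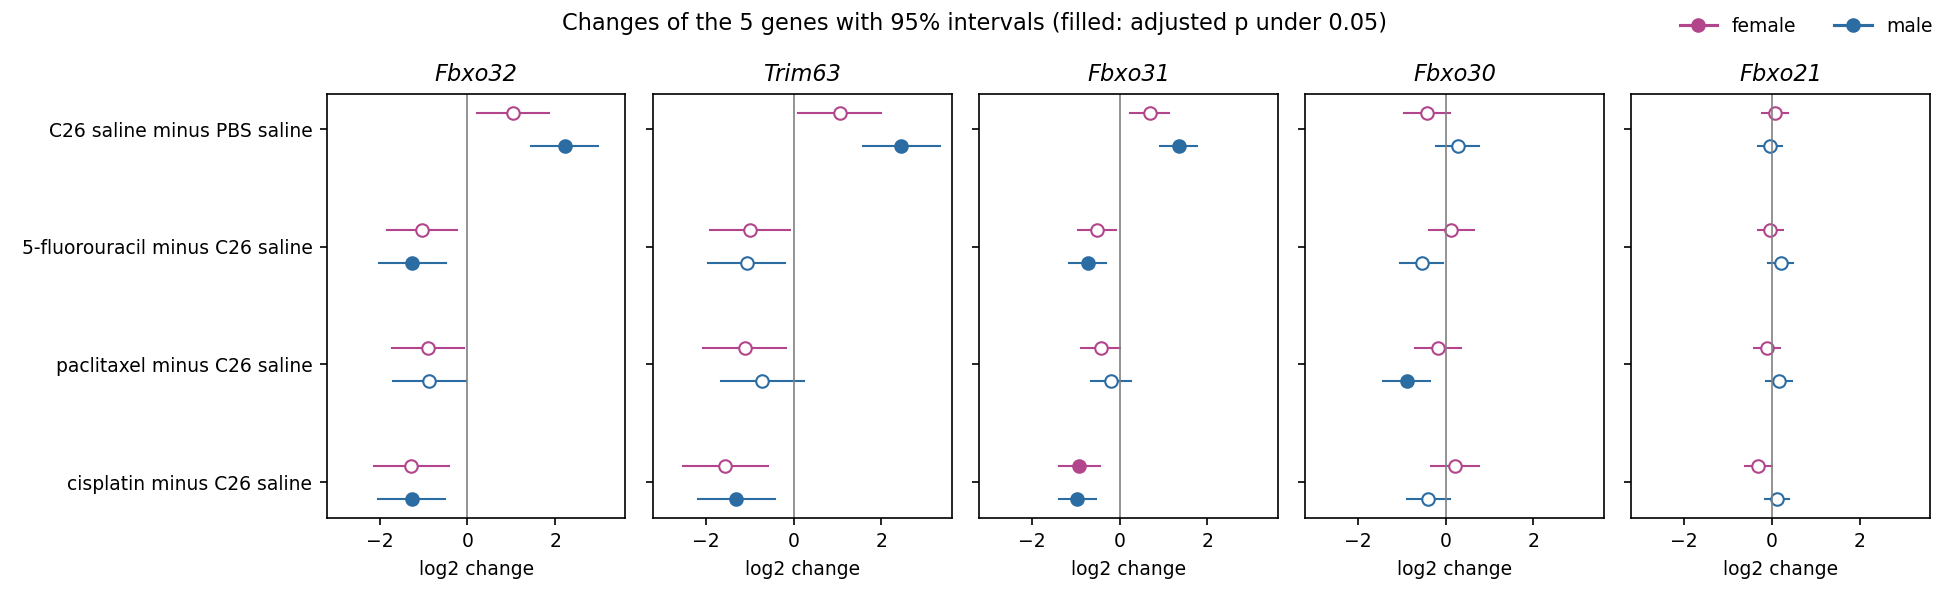
Log2 change (horizontal axis, with 95% intervals) of each gene in the tumour comparison and in the 3 drug comparisons, females in magenta and males in blue. Filled points had a limma adjusted p under 0.05, as for Fbxo32 with a rise of 2.21 in tumour-bearing males and a fall of 1.26 under 5-fluorouracil.

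The drug comparisons ask how treated tumour hosts differed from saline-treated tumour hosts. They share the C26 saline libraries with the tumour comparison and with each other, so a high value in those libraries raises the tumour difference and lowers every drug difference at once. In males given cisplatin, Fbxo32, Trim63 and Fbxo31 were lower. Fbxo32 lay at 7.79, 9.08 and 9.92 in the cisplatin group, below the C26 saline mean in 8 of 8 libraries but overlapping its range. It fell by 1.27 on the log2 scale (SE 0.38, limma adjusted p = 0.0153), Trim63 (7.48, 9.46 and 11.21) by 1.30 (SE 0.44, adjusted p = 0.0325) and Fbxo31 (7.51, 7.72 and 8.81) by 0.96 (SE 0.21, adjusted p = 0.000763). Of the 8 cisplatin libraries, 7 had less Fbxo31 than any C26 saline library, and replicate 4 was the exception. These 3 falls among 5 genes stood against 8.23% of all genes that fell. The Fbxo32 call was lost without C26 saline replicate 5 (-1.11, adjusted p = 0.0545). The Trim63 call was lost with only the compared groups fitted (adjusted p = 0.109), without C26 saline replicate 1, 3, 5 or 6, and without cisplatin replicate 1, 2 or 8 (adjusted p 0.0504 to 0.0925).

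In males given 5-fluorouracil, Fbxo32 and Fbxo31 were lower and Trim63 came close to the threshold. Fbxo32 lay at 7.89, 9.03 and 10.16 and fell by 1.26 (SE 0.38, limma adjusted p = 0.0134), again with 8 of 8 libraries below the C26 saline mean. Fbxo31 lay at 7.54, 7.97 and 8.85 and fell by 0.72 (SE 0.21, adjusted p = 0.0104). Trim63, at 7.46, 9.87 and 10.47, split into 2 libraries near the PBS level and 6 above 9. Its difference was -1.07 ± 0.44 (adjusted p = 0.066), and it passed without C26 saline replicate 2 (-1.23, adjusted p = 0.0413) or 8 (-1.30, adjusted p = 0.0275), or without 5-fluorouracil replicate 2 (-1.18, adjusted p = 0.047). It also passed with quantile normalization (adjusted p = 0.0373), quality weights (0.0184), the replicate block (0.0493), the GC slope in the model (0.0337) and on the libraries of low slope alone (-1.75, adjusted p = 0.00743). Fbxo30 differed by -0.55 ± 0.25 (adjusted p = 0.0919). It passed with quality weights (adjusted p = 0.038) and without 5-fluorouracil replicate 2 (0.0421) or 3 (0.0445), and shrank to -0.11 with the GC slope in the model and -0.13 on the libraries of low slope alone. The count of 2 of 5 genes lower compares with 12% of all genes.

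Paclitaxel gave a different list of called genes in males. Fbxo30 was the member that fell, from 2.69, 3.22 and 3.89 in C26 saline to 1.44, 2.68 and 3.06 in paclitaxel muscle, by 0.89 (SE 0.27, limma adjusted p = 0.0101). All 6 paclitaxel libraries were below the C26 saline mean, and 18.5% of all genes fell. A fit with the GC slope among its terms gave -0.16 (adjusted p = 0.661), the fit on libraries of low slope gave -0.32 (adjusted p = 0.436), and the call was also lost without paclitaxel replicate 5 (-0.70, adjusted p = 0.0628). The GC slope averaged 0.26 ± 0.26 (SD) in the paclitaxel group and -0.10 ± 0.06 in the C26 saline group. Fbxo32 lay at 7.49, 9.46 and 11.08 under paclitaxel, a difference of -0.87 ± 0.41 (adjusted p = 0.0958), which passed without C26 saline replicate 8 (-1.10, adjusted p = 0.0362) or paclitaxel replicate 3 (-1.19, adjusted p = 0.0278) and shrank to -0.48 (adjusted p = 0.413) without paclitaxel replicate 5. Trim63 ran from 7.99 to 12.02 with a median of 9.17, and 2 of 6 libraries exceeded every C26 saline library, so that its difference was -0.71 ± 0.47 (adjusted p = 0.245). Left out singly, paclitaxel replicates 2, 3 and 5 moved it to -1.07, -1.15 and -0.35. It was -1.41 on the libraries of low GC slope alone and -0.47 with quality weights. Fbxo31 (7.73, 8.65 and 9.50) differed by -0.19 ± 0.23 (adjusted p = 0.537). With the GC slope in the model that difference was -0.70 (adjusted p = 0.0267), and on the libraries of low slope alone, 2 of them paclitaxel libraries, it was -0.90 (adjusted p = 0.0341).

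In females, Fbxo31 under cisplatin was the member called in a drug comparison. It lay at 7.15, 7.33 and 7.84, with 5 of 6 libraries below every C26 saline library, and fell by 0.92 (SE 0.24, limma adjusted p = 0.0252), where 1.31% of all genes fell. The call was lost without C26 saline replicate 1, 6 or 7 or cisplatin replicate 1, 2, 3 or 5 (differences of -0.92 to -0.76, adjusted p 0.0523 to 0.129). Trim63 (6.89, 7.29 and 8.11) differed by -1.55 ± 0.49 (adjusted p = 0.081) and Fbxo32 (6.69, 7.24 and 8.34) by -1.28 ± 0.43 (adjusted p = 0.101). Both passed on the libraries of low GC slope alone, with Trim63 at -1.66 (adjusted p = 0.0189) and Fbxo32 at -1.48 (adjusted p = 0.0296). They also passed with quality weights, with Trim63 at -1.56 (limma adjusted p = 0.00167) and Fbxo32 at -1.44 (adjusted p = 0.00184). Trim63 passed as well with only the compared groups fitted (adjusted p = 0.0181).

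Under 5-fluorouracil, female Fbxo32 lay at 6.68, 7.54 and 9.64, where replicate 1 gave the highest value and the next library was at 7.74. The difference from C26 saline was -1.03 ± 0.40 (adjusted p = 0.248). Trim63 (7.10, 8.01 and 9.35, replicate 1 again the highest) differed by -0.99 ± 0.46 (adjusted p = 0.423) and Fbxo31 (7.26, 7.63 and 8.32) by -0.51 ± 0.22 (adjusted p = 0.348). None of the 5 genes was called, against 1.35% of all genes. With quality weights Fbxo32 (-1.30, limma adjusted p = 0.0119) and Fbxo31 (-0.56, adjusted p = 0.0203) passed. With paclitaxel, Fbxo32 (6.60, 7.69 and 9.00) differed by -0.89 ± 0.41 (adjusted p = 0.774), Trim63 (7.02, 7.96 and 8.85) by -1.12 ± 0.47 (adjusted p = 0.700) and Fbxo31 (7.29, 7.87 and 8.51) by -0.43 ± 0.23 (adjusted p = 0.825). limma called 0% of all genes in this comparison. An unadjusted p under 0.05 was reached by 845 genes, a little above the share of 0.05 that would average there with no differences. Fbxo30 and Fbxo21 were within 0.31 log2 units of C26 saline in each of the female drug groups. With cisplatin, 5 of 6 libraries had less Fbxo21 than any C26 saline library. That difference was not called, but passed with quality weights (-0.31, limma adjusted p = 0.0396).

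Tested directly, the drug differences of males and females were not told apart for any member. The male minus female difference of the cisplatin effect was 0.01 ± 0.57 for Fbxo32, with a 95% interval of -1.13 to 1.16, 0.25 ± 0.66 for Trim63 and -0.04 ± 0.32 for Fbxo31. For 5-fluorouracil it was -0.23 ± 0.55 for Fbxo32, -0.08 ± 0.63 for Trim63 and -0.21 ± 0.31 for Fbxo31. For paclitaxel it was 0.02 ± 0.58 for Fbxo32, 0.41 ± 0.67 for Trim63, 0.24 ± 0.32 for Fbxo31 and -0.73 ± 0.37 for Fbxo30 (adjusted p = 0.266, or -0.94 and 0.026 with quality weights). limma called 0 of 5 members and 0% of all genes for each drug, while 2044, 2704 and 1993 genes had an unadjusted p under 0.05 for 5-fluorouracil, paclitaxel and cisplatin.

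The neutrophil sums moved along with the drug groups too. Their medians were 4.04 CPM with 5-fluorouracil, 14.9 with paclitaxel and 5.11 with cisplatin in males, and 1.32, 7.83 and 3.24 in females. The medians of the macrophage markers were 84.2, 118 and 69.4 in males and 63.9, 135 and 66.3 in females. The part of these cells in the members' values was not tested.

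Set against PBS muscle, the treated tumour hosts still had more of 3 members in the male paclitaxel group. Trim63 was higher by 1.74 ± 0.47 (limma adjusted p = 0.00476), Fbxo32 by 1.35 ± 0.41 (adjusted p = 0.0105) and Fbxo31 by 1.15 ± 0.23 (adjusted p = 0.000282), 3 of 5 genes where 16.9% of all genes were higher. In each of the 3, 5 of 6 paclitaxel libraries exceeded every PBS library. With all libraries of high GC slope left out, which leaves 2 paclitaxel and 6 PBS libraries, the differences were 1.14 for Trim63 (adjusted p = 0.482), 1.19 for Fbxo32 (adjusted p = 0.44) and 0.56 for Fbxo31 (adjusted p = 0.405). With the GC slope in the model Fbxo31 was at 0.67 (adjusted p = 0.0167) and Trim63 lost its call (1.43, adjusted p = 0.0579). Fbxo32 lost its call without paclitaxel replicate 3 (1.02, adjusted p = 0.0624).

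Male 5-fluorouracil muscle had more Trim63 than PBS muscle by 1.38 ± 0.44 (adjusted p = 0.0506), more Fbxo32 by 0.96 ± 0.38 (adjusted p = 0.107) and more Fbxo31 by 0.62 ± 0.21 (adjusted p = 0.0668), with 0 of 5 called against 4.76% of all genes. Trim63 passed without PBS replicate 2 or 4 or 5-fluorouracil replicate 1, 3 or 6 (adjusted p 0.0123 to 0.0498). Without 5-fluorouracil replicate 1, Fbxo32 (1.13, adjusted p = 0.0492) and Fbxo31 (0.70, adjusted p = 0.0317) passed as well. Fbxo31 also passed without PBS replicate 4 (adjusted p = 0.0483) or 5-fluorouracil replicate 3 (adjusted p = 0.0405). On the libraries of low GC slope alone Trim63 was at 0.80 and Fbxo32 at 0.62, and with the slope in the model Fbxo31 was at 0.34. For male cisplatin the differences from PBS were 1.15 ± 0.44 for Trim63 (adjusted p = 0.225) and 0.94 ± 0.38 for Fbxo32 (adjusted p = 0.263), with 0 of 5 called against 0.902% of all genes.

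In treated females no member was called against PBS muscle. With 5-fluorouracil the difference from PBS was 0.01 ± 0.40 for Fbxo32, with a 95% interval of -0.78 to 0.80, and 0.06 ± 0.46 for Trim63. With paclitaxel it was 0.15 ± 0.41 for Fbxo32 and -0.07 ± 0.47 for Trim63, and with cisplatin -0.24 ± 0.43 and -0.50 ± 0.49. None of the 5 members was called, against 0.383%, 4.58% and 0.209% of all genes. Among the other 3 genes the largest difference was that of Fbxo30 with paclitaxel, -0.58 ± 0.26 (unadjusted p = 0.0299, adjusted p = 0.23), with 7 of 7 libraries below the PBS mean, and it was -0.37 without paclitaxel replicate 7. The 95% intervals of Fbxo32 and Trim63 reached down to -1.48, for Trim63 with cisplatin.

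The 3 drugs were compared with each other at the same share (75%) of the tolerated dose and at 1 time, in 6 pairs. No member was called in any pair, where limma called 0.188%, 0% and 0.0217% of all genes in females and 0.0144%, 0% and 0.0144% in males for paclitaxel against 5-fluorouracil, cisplatin against 5-fluorouracil and cisplatin against paclitaxel. Unadjusted p values under 0.05 were reached by 465 genes in females and 574 in males for cisplatin against 5-fluorouracil, the pairs with no call. Both counts are below the share of 0.05 of all genes that would average there with no differences. The smallest adjusted p among the members was 0.0827, for Fbxo31 in males, with cisplatin minus paclitaxel at -0.77 (95% interval -1.22 to -0.31). That difference passed without paclitaxel replicate 4 (-0.94, adjusted p = 0.0117) or 6 (-0.87, adjusted p = 0.0242) and without cisplatin replicate 4 (-0.91, adjusted p = 0.00927). It shrank to -0.38 with the GC slope in the model and to -0.24 on the libraries of low slope alone. For Fbxo32 in males the intervals ran from -0.44 to 1.21 for paclitaxel against 5-fluorouracil and from -0.78 to 0.75 for cisplatin against 5-fluorouracil, so differences of that size are not excluded.

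Male and female levels of the same arm differed in tumour hosts. In PBS muscle the male minus female difference was 0.48 ± 0.40 for Fbxo32 (limma adjusted p = 0.7) and 0.15 ± 0.46 for Trim63 (adjusted p = 0.951), with 0 of 5 members called against 3.39% of all genes. In C26 saline muscle Fbxo32 was higher in males by 1.66 ± 0.40 (adjusted p = 0.00569) and Trim63 by 1.56 ± 0.46 (adjusted p = 0.0264), 2 of 5 where 3.11% of all genes were higher. With 5-fluorouracil Fbxo32 was higher by 1.43 ± 0.38 (adjusted p = 0.0175) and Trim63 by 1.47 ± 0.44 (adjusted p = 0.0358), again 2 of 5, against 2.56%. Fbxo31 joined them with paclitaxel, 3 of 5 against 4.06%, with Fbxo32 higher by 1.68 ± 0.43 (adjusted p = 0.0096), Trim63 by 1.96 ± 0.49 (adjusted p = 0.00846) and Fbxo31 by 0.75 ± 0.24 (adjusted p = 0.0377). With cisplatin Fbxo32 was higher by 1.67 ± 0.41 (adjusted p = 0.00921), Trim63 by 1.80 ± 0.47 (adjusted p = 0.0159) and Fbxo21 by 0.60 ± 0.15 (adjusted p = 0.00937), 3 of 5 against 2.44%.

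These differences between the sexes held less firmly than the male tumour effect. The batch value in the labels is the same for all libraries, and nothing there says whether the sexes were handled together. With only the 2 groups compared in the fit, a difference of means cannot change, while its SE and adjusted p can. There Fbxo32 lost its call in C26 saline (limma adjusted p = 0.0569), 5-fluorouracil (0.0515) and paclitaxel (0.142) muscle. In the same fits Trim63 lost its call in the C26 saline (0.0608), 5-fluorouracil (0.081), paclitaxel (0.136) and cisplatin (0.0533) groups, Fbxo31 with paclitaxel (0.218) and Fbxo21 with cisplatin (0.0769). On the libraries of low GC slope alone Trim63 went from 1.47 to 0.81 (adjusted p = 0.373) with 5-fluorouracil and from 1.96 to 1.16 (0.468) with paclitaxel. Fbxo32 went to 1.05 (0.215) and 1.35 (0.371) in these groups, and Fbxo31 from 0.75 to 0.25 (0.761) with paclitaxel, or to 0.44 (0.135) with the slope in the model. Trim63 lost its call in C26 saline muscle without female replicate 2, 4, 5 or 7 or male replicate 3, 5 or 6 (adjusted p 0.0513 to 0.0782). With 5-fluorouracil Trim63 lost it without female replicate 2, 5 or 6 or male replicate 2, 4, 5, 7 or 8 (0.0521 to 0.106), and Fbxo32 without female replicate 6 (0.0507) or male replicate 7 (0.0584). With paclitaxel Fbxo32 lost it without male replicate 3 (0.0665), Trim63 without male replicate 2 (0.0642) or 3 (0.0677), and Fbxo31 without female replicate 2, 3, 4 or 5 or male replicate 1, 2 or 3 (0.0607 to 0.167). With cisplatin Trim63 lost it without male replicate 4 (0.0675).

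Ordered by mean, both atrophy markers put male C26 saline first. The order for Fbxo32 was male C26 saline (10.32 ± 0.86, SD), male paclitaxel (9.45 ± 1.18), male 5-fluorouracil (9.07 ± 0.78), male cisplatin (9.05 ± 0.75), female C26 saline (8.67 ± 0.98), male PBS (8.11 ± 0.30), female paclitaxel (7.77 ± 0.90), female 5-fluorouracil (7.64 ± 0.89), female PBS (7.63 ± 0.29) and female cisplatin (7.38 ± 0.57). Among the 9 pairs of neighbours in that order, 0 differed by more than the larger SD of the pair. For Trim63 the sequence of the male groups was the same, and 1 of 9 neighbouring pairs was further apart than the larger SD, female C26 saline (8.95 ± 0.82) over male PBS (8.06 ± 0.29). For Fbxo31, Fbxo30 and Fbxo21 the number was 0 of 9. Fbxo30 means lay between 2.41 and 3.31 and Fbxo21 means between 4.23 and 4.91.

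In both sexes, Trim63 and Fbxo32 spread over a wider range in each tumour-bearing group than in PBS muscle. On the linear scale the highest male PBS library had 1.83 times the Trim63 of the lowest, while this ratio was 6.20 in C26 saline, 8.01 with 5-fluorouracil, 16.3 with paclitaxel and 13.3 with cisplatin. For Fbxo32 the ratios in males were 1.89, 6.58, 4.82, 12.0 and 4.38 in the same order. Female ratios in that order were 1.91, 3.95, 4.75, 3.55 and 2.32 for Trim63 and 1.82, 5.66, 7.77, 5.26 and 3.14 for Fbxo32. Male paclitaxel replicate 3 had the highest Fbxo32 (11.08), Trim63 (12.02) and Fbxo31 (9.50) of its group, and replicate 5 the lowest Fbxo32 (7.49) and Trim63 (7.99). Spread was not tested between groups.

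**Figure D3:**
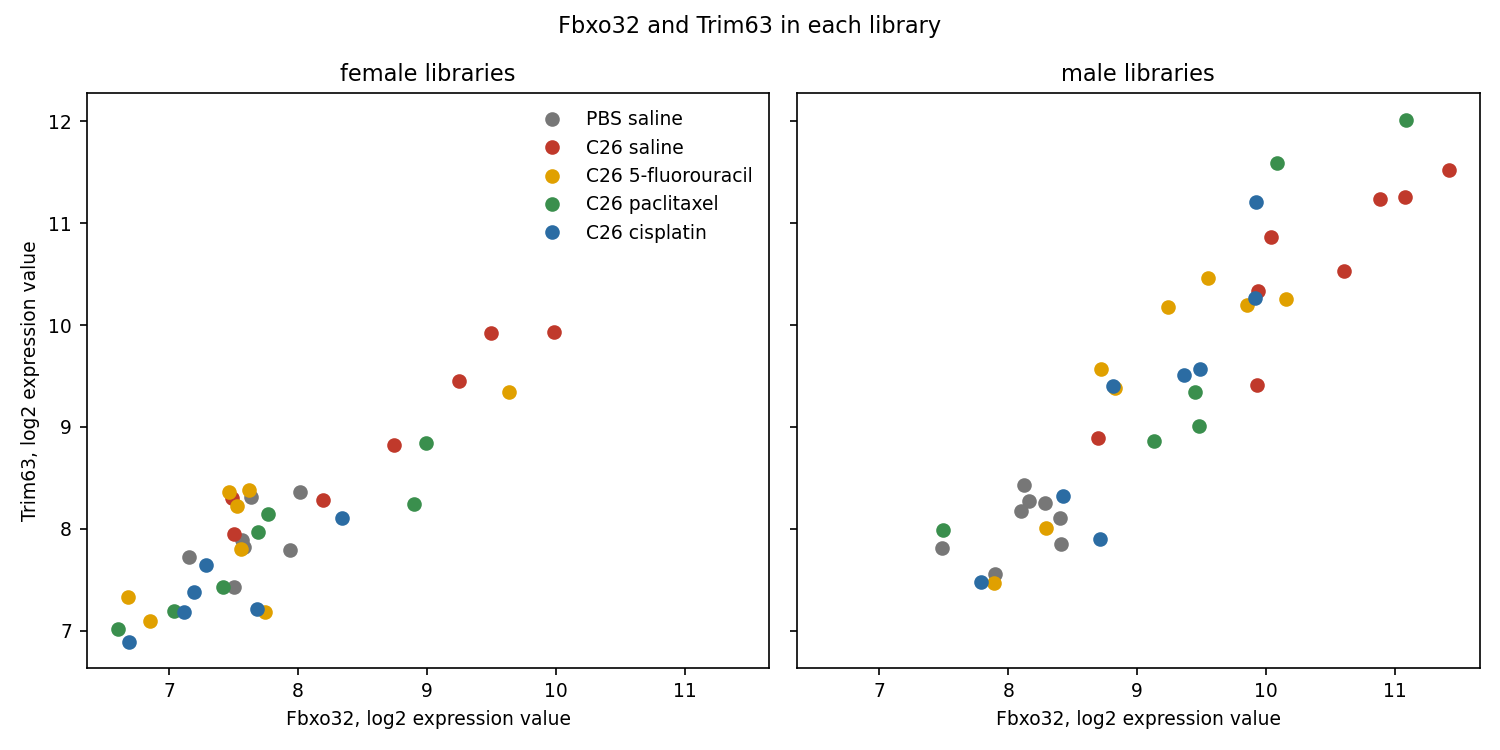
Trim63 (vertical axis) against Fbxo32 (horizontal axis), both as log2 expression values, with 1 point per library, females on the left, males on the right and the arms in colour. Over all libraries of a sex, deviations from the group means had r of 0.874 in females and 0.885 in males, and the male C26 saline libraries extend to 11.42 for Fbxo32.

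Fbxo32 and Trim63 followed each other from library to library within the groups. After the mean of each group was removed, Pearson's r was 0.874 over 35 female libraries (Spearman's rho 0.815) and 0.885 over 38 male libraries (rho 0.880). Permutation within groups gave p = 1e-05 for both, the smallest that 100000 resamples can give, and 5e-05 after adjustment over the 20 relations computed between members. Without the 2 libraries farthest from the median of Fbxo32 the r values were 0.822 and 0.874.

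The other relations were looser and less alike between the sexes. Fbxo31 followed Trim63 with r = 0.542 in females (rho 0.498, permutation adjusted p = 0.0129) and 0.639 in males (rho 0.578, adjusted p = 0.000967), and without the 2 farthest libraries with 0.541 and 0.546. Fbxo31 followed Fbxo32 with r = 0.662 in males (rho 0.649, adjusted p = 0.00048; 0.653 without 2 libraries) and 0.433 in females (rho 0.417, adjusted p = 0.0512; 0.380 without 2). Fbxo21, whose group means hardly moved, followed Trim63 in males with r = 0.757 (rho 0.763, adjusted p = 5e-05; 0.732 without 2) and in females with 0.323 (rho 0.332, adjusted p = 0.113; 0.240 without 2). Fbxo21 followed Fbxo32 with r = 0.646 in males (rho 0.628, permutation adjusted p = 5e-05) and 0.215 in females (rho 0.211, adjusted p = 0.307). Fbxo30 had no relation that passed with Fbxo32 or Trim63. With Fbxo32 its r was 0.153 in males (rho 0.070, adjusted p = 0.457, r -0.082 without 2 libraries) and 0.410 in females (rho 0.354, adjusted p = 0.0534, r 0.317 without 2). With Trim63 it was 0.021 in males (rho -0.110, adjusted p = 0.917, r 0.006 without 2) and 0.204 in females (rho 0.111, adjusted p = 0.343, r 0.056 without 2). The difference between the sexes in these relations was not tested.

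**Figure D4:**
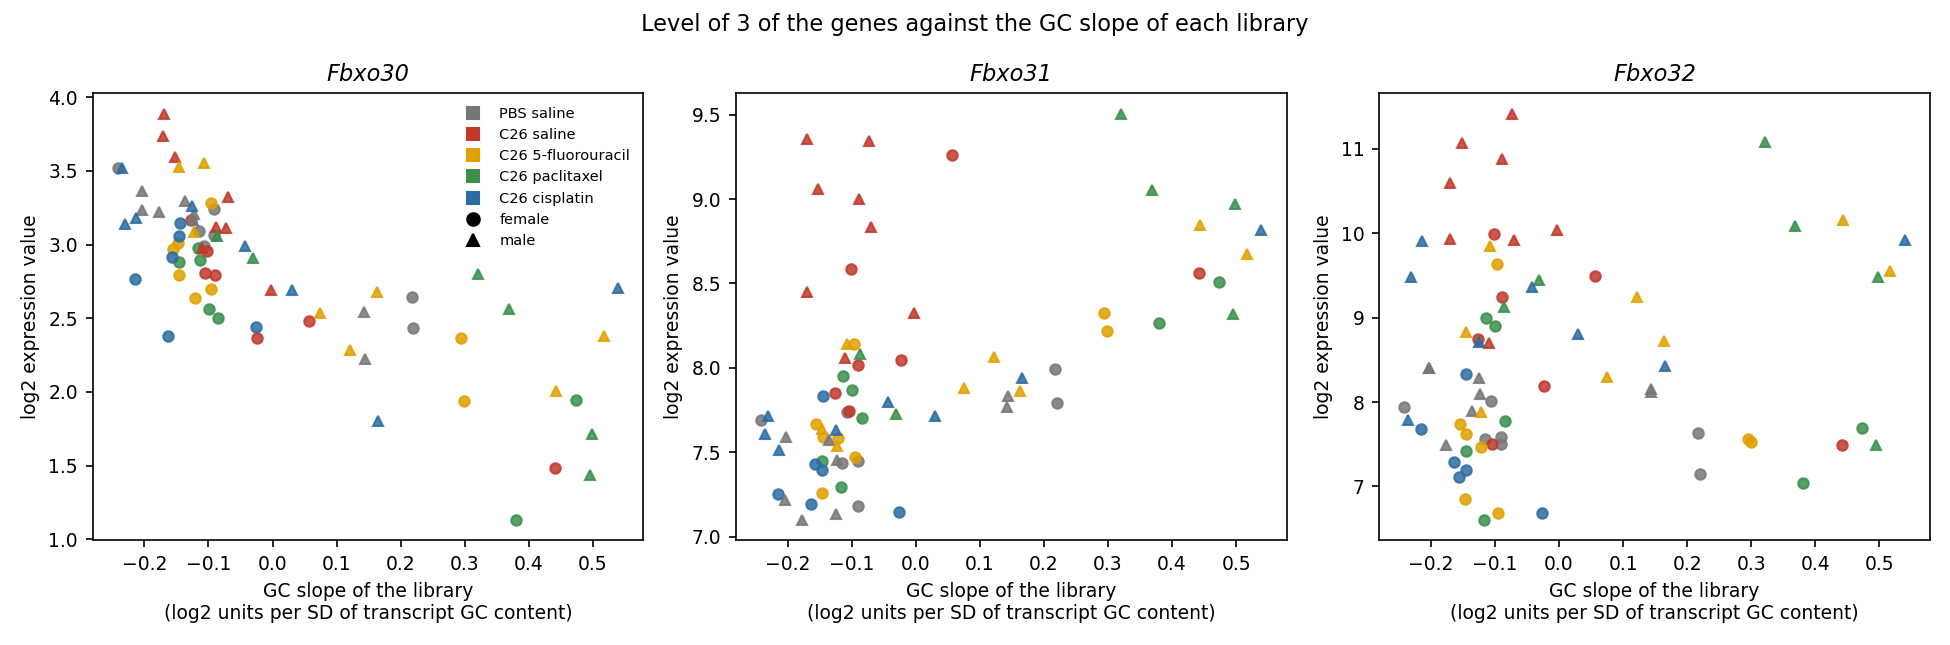
Log2 expression value of Fbxo30, Fbxo31 and Fbxo32 (vertical axes) against the GC slope of each library (horizontal axis), with arms in colour, circles for females and triangles for males. Fbxo30 is lower and Fbxo31 higher in libraries of high slope, while Fbxo32 has no such relation (r = -0.274 in females and 0.173 in males).

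Fbxo30 and Fbxo31 also followed the GC slope of the libraries. The transcript of Fbxo30 has a GC content of 41.3% (4.23rd percentile of the genes) and that of Fbxo31 59.5% (94.5th percentile). Within groups Fbxo30 was related to the slope with r = -0.858 in females (rho -0.779; -0.843 without the 2 farthest libraries) and -0.762 in males (rho -0.837; -0.864 without 2). Fbxo31 was related to it with r = 0.630 in females (rho 0.574; 0.584 without 2) and 0.672 in males (rho 0.605; 0.561 without 2). Permutation p values adjusted over the 10 relations with the slope were at most 0.0013 for these 4. Fbxo21 gave r of 0.529 in females (rho 0.389, adjusted p = 0.00512) and 0.517 in males (rho 0.476, adjusted p = 0.00398). The permutation adjusted p values of rho itself were 0.0369 and 0.00764. Without the 2 libraries farthest from the median slope, r fell to 0.314 and 0.347 and did not pass (adjusted p = 0.156 and 0.083). Leaving these out also narrows the range of the slope. For Fbxo32 (GC content 45.8%) r was -0.274 in females (rho -0.263, adjusted p = 0.213; -0.179 without 2) and 0.173 in males (rho 0.171, adjusted p = 0.406; 0.043 without 2). For Trim63 (51.5%) r was -0.085 (rho -0.024, adjusted p = 0.669; -0.020 without 2) and 0.351 (rho 0.359, adjusted p = 0.109; 0.164 without 2).

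The genes most like each member were ranked by Pearson's r of the deviations from group means over 73 libraries, among 10463 other genes, as a description. Libraries share their depth and GC slope, which enters every such r. For Fbxo32 they were Klhl38 (0.883), Trim63 (0.856), Ubr2 (0.833), Rbm20 (0.820) and Arnt (0.813). For Trim63 they were Klhl38 (0.929), Cdkn1a (0.859), Fbxo32 (0.856), Tmem140 (0.839) and Nfil3 (0.833). Klhl38, a kelch-like gene of muscle, headed both lists, and Ubr2 encodes an N-end rule ubiquitin ligase. For Fbxo31 the leading genes were Gaa (0.931), Mknk2 (0.926), Mars1 (0.918), Psmd4 (0.917), a ubiquitin receptor of the proteasome, and Ubb (0.914), a polyubiquitin gene. For Fbxo30 they were Klhl24 (0.905), Tmem106b (0.901), Ppp1r12a (0.891), Gabpa (0.887) and Crebrf (0.886). For Fbxo21 they included Fntb (0.741), Ctsf (0.738), Plcd3 (0.729) and Asb16 (0.728).

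Within the F-box family, Fbxo32 and Fbxo31 had the largest rises of the tumour comparison in males. Of 54 F-box genes in the table, 5 rose and 8 fell in males, with a median change of 0.01, against 0.00 for all genes. This is near the share over all genes, of which 13.1% rose and 26.1% changed. Beside the members, Fbxo27 rose by 0.73 ± 0.23 (adjusted p = 0.0132). The largest falls were those of Fbxl22, an F-box protein of the sarcomeric Z-disc, by 1.76 (SE 0.39, adjusted p = 0.000364), Fbxw7, which targets cyclin E and MYC, by 0.82 (SE 0.14, adjusted p = 7.35e-06), and Fbxl16 by 0.64 (SE 0.19, adjusted p = 0.00844). In females 0 of 54 rose and 3 fell, against 6.7% of all genes called, Fbxw7 by 0.83 (SE 0.15, adjusted p = 0.000123), the muscle F-box gene Fbxo40 by 0.44 (SE 0.13, adjusted p = 0.0279) and Fbxo9 by 0.35 (SE 0.12, adjusted p = 0.0497).

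**Figure D5:**
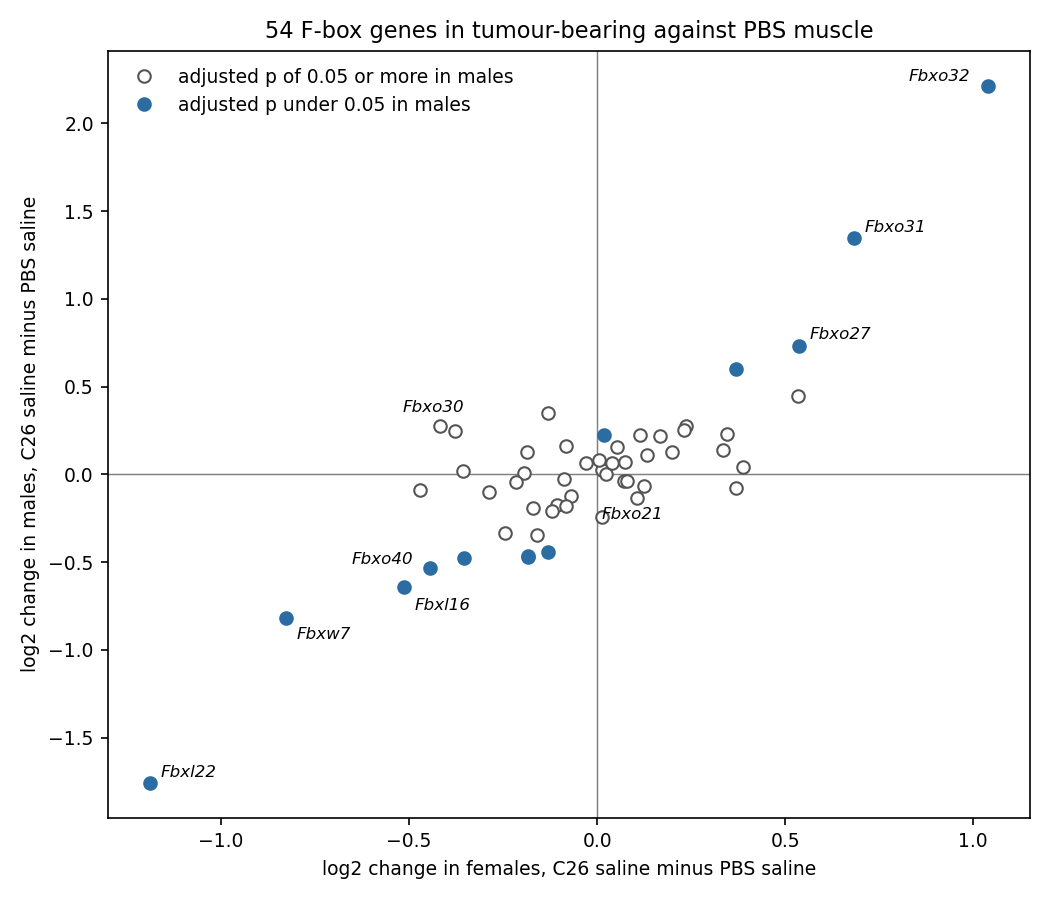
Log2 change in tumour-bearing against PBS muscle for 54 F-box genes, females on the horizontal axis and males on the vertical axis, with filled points for a limma adjusted p under 0.05 in males. Fbxo32 lies at the upper right with 1.04 in females and 2.21 in males, and Fbxl22 at the lower left with -1.76 in males.

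Transcripts of pathways known to act upstream of the members were counted in the same tumour comparison, on lists chosen with earlier results of these data known. The part of these genes in the members' changes was not tested. Of 17 genes of the FoxO and AKT pathway, 10 rose and 1 fell in males (median 0.81) and 4 rose and 1 fell in females (median 0.27), where 26.1% and 6.7% of all genes were called and the medians of all genes were 0.00 and -0.01. Foxo1, a FoxO factor that activates Fbxo32 and Trim63, rose by 2.14 ± 0.40 (adjusted p = 2.61e-05) in males. Foxo3, which has the same role, rose by 1.19 ± 0.18 (adjusted p = 4.56e-07) in males and by 0.94 ± 0.19 (adjusted p = 0.000705) in females. Eif4ebp1, a translation repressor, rose by 2.39 ± 0.35 (adjusted p = 2.32e-07) in males. Foxo6 moved the other way, with changes of -2.96 ± 0.33 (adjusted p = 2.72e-10) in males and -1.87 ± 0.35 (adjusted p = 0.000162) in females.

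Glucocorticoid and cytokine genes rose in both sexes. Of 15 glucocorticoid genes, 7 rose in males (median 0.80) and 5 in females (median 0.15), with none falling, against 26.1% and 6.7% of all genes called. Among them Fkbp5, a feedback inhibitor of the glucocorticoid receptor, rose by 2.71 ± 0.31 (adjusted p = 1.03e-09) in males and 2.47 ± 0.33 (adjusted p = 2.24e-07) in females. The metallothionein gene Mt2, which also answers to metals, rose by 6.30 ± 0.59 (adjusted p = 2.55e-12) in males and 3.90 ± 0.64 (adjusted p = 1.72e-05) in females. Of 16 genes of IL-6, STAT3 and NF-kB signalling, 9 rose and 1 fell in males and 7 rose in females, against the same shares. Stat3 rose by 1.67 ± 0.19 (adjusted p = 1.03e-09) and 1.48 ± 0.21 (adjusted p = 4.83e-07). In the same comparison the neutrophil and macrophage sums were higher as well, with values given above, and their part in these lists was not tested.

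Of 24 genes of BMP and activin signalling, the pathway that bears on Fbxo30, 5 rose and 2 fell in males and 2 rose in females. This is near the share over all genes, of which 26.1% were called in males and 6.7% in females. The genes named from this list were picked by their small adjusted p. Inhbb, an activin subunit, rose by 2.34 ± 0.40 (adjusted p = 6.31e-06) in males, and Nog, the secreted BMP antagonist noggin, by 1.19 ± 0.28 (adjusted p = 0.000657) in males and 0.93 ± 0.30 (adjusted p = 0.0419) in females. Of 8 measured denervation genes, 5 rose in males and 3 in females, against the same shares, among them Runx1 by 1.49 ± 0.24 (adjusted p = 2.27e-06) and 1.45 ± 0.26 (adjusted p = 9.01e-05), and Myog, encoding myogenin, by 1.92 ± 0.58 (adjusted p = 0.00964) in males.

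With the drugs the regulator lists had calls mostly in the other direction, again over shared C26 saline libraries. In males, 5, 4 and 6 of 17 FoxO and AKT genes fell with 5-fluorouracil, paclitaxel and cisplatin, and 2, 2 and 1 rose, where 12%, 18.5% and 8.23% of all genes fell. Foxo6 was among those that rose, by 1.73 ± 0.33 (adjusted p = 0.000101), 1.60 ± 0.35 (adjusted p = 0.00151) and 1.67 ± 0.33 (adjusted p = 0.000146). Of 16 cytokine signalling genes, 6, 2 and 8 fell in males, against the same shares, with a change in Stat3 of -1.17 ± 0.19 (adjusted p = 1.39e-05) with 5-fluorouracil and -1.13 ± 0.19 (adjusted p = 2.1e-05) with cisplatin. In females 5, 0 and 5 of these 16 fell, where 1.35% of all genes changed with 5-fluorouracil, 0% with paclitaxel and 1.31% fell with cisplatin, and Stat3 changed by -1.22 ± 0.20 (adjusted p = 0.000121) with 5-fluorouracil and -1.08 ± 0.21 (adjusted p = 0.00201) with cisplatin.

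Lists of the general ubiquitin machinery held calls in both directions in the tumour comparison, where 26.1% of all genes were called in males and 6.7% in females. Of 10 measured SCF core and neddylation genes, 1 rose in males, Cops5 by 0.28 ± 0.10 (adjusted p = 0.0336), and 0 changed in females, where limma gave its smallest adjusted p to Uba3, named after its value was seen (-0.31 ± 0.18, adjusted p = 0.363). Of 16 E1 and E2 enzyme genes, 1 rose and 4 fell in males, with Ube2j1 of the endoplasmic reticulum at 0.80 ± 0.13 (adjusted p = 3.68e-06), and 1 fell in females. Of 13 polyubiquitin and deubiquitinase genes, 2 rose and 1 fell in males, with Ubb at 0.85 ± 0.19 (adjusted p = 0.000325). Of 20 other muscle ubiquitin ligases, 2 rose and 6 fell in males and 5 fell in females. Trim55, encoding MuRF2, the close relative of MuRF1, fell in males by 0.77 (SE 0.12, adjusted p = 1.58e-06), opposite to Trim63.

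The SCF core had its largest number of calls in males given paclitaxel. There, 7 of 10 genes fell and 1 rose, with a median change of -0.51, where 18.5% of all genes fell, and Cand1, the exchange factor for F-box subunits, fell by 0.44 (SE 0.09, adjusted p = 0.00102). With 5-fluorouracil 3 fell and 1 rose, against 12% of all genes that fell, with Cul1 at -0.60 ± 0.18 (adjusted p = 0.0103). With cisplatin 1 fell, against 8.23%. The paclitaxel and 5-fluorouracil groups are those with 4 libraries each of high GC slope, and the part of that slope in these counts was not tested.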

How the data were processed

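Gastrocnemius RNA of 75 listed samples was sequenced. The authors deposited 1 log2 expression value per gene and library, and FastQC, MultiQC, fastp, Salmon, edgeR, limma and build GRCm39 are named, without roles or versions, per the submitters' processing notes. From the values, each is log2 of an estimated count plus 0.5 over a scaled library size, and 85.0 to 90.7% of a library's recovered counts were whole within 0.02. Recovered totals were 11.4 to 40.5 M. No count test was run on these estimates. The table has 74 columns. A female PBS library (replicate 8) was not analysed here, and a female library titled saline but labelled 5-fluorouracil was left out. This left 73 libraries in 10 groups.

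limma 3.58.1 in R 4.3.3 (trended eBayes, two-sided) fitted 1 mean per group to all libraries and 13856 genes, with 63 residual degrees of freedom, 29 comparisons and calls at a Benjamini-Hochberg adjusted p under 0.05 over all genes. The fit was tested on simulated data. Labels do not tie libraries to separate animals, and a p value reflects only how these samples varied. No 2 libraries of the same group agreed within counting noise (lowest mean chi-square per gene 14.9). Pairs from different groups were not checked.

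The members and gene lists were chosen with earlier results of these data known. Named genes are the members and, per list, genes with the smallest adjusted p. These are up to 4 from the male tumour comparison, and up to 2 from the female tumour comparison and from each drug comparison. From the F-box genes, up to 3 of the largest called rises and falls per tumour comparison are named. The GC slope is the slope of a library's deviations on standardised transcript GC content (GENCODE vM21, 13791 gene IDs matched, 99.5%), with log2 length as second regressor, over 10637 genes. The relations with this slope and the promoter motif search were chosen after seeing the data. Relations used deviations from group means and 100000 permutations within groups. Alternatives were quantile normalization, a mean log2 filter of 1, a pseudocount of 1, quality weights, a replicate block, the GC slope as covariate, libraries with slope above 0.1 left out, only the compared groups, and each library left out in turn.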

Additional observations from a re-analysis of the deposited data

Results flagged for a closer look

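Of 50 groups of a gene's values in 1 arm and sex, 2 held a library far from the rest by Dixon's criterion, where chance gives about 1 in 20. Fbxo32 in female 5-fluorouracil replicate 1 was 9.64, with the next library at 7.74, a median of 7.54 and a lowest value of 6.68. The same library also had the highest Trim63 of its group, 9.35. Without it the difference of Fbxo32 from C26 saline was -1.32 ± 0.39 (limma adjusted p = 0.0603), against -1.03 with it. Fbxo31 in male cisplatin replicate 4 was 8.81, with the next library at 7.94 and a median of 7.72. Without it Fbxo31 fell by 1.10 against C26 saline (SE 0.21, limma adjusted p = 0.000124), and its difference from paclitaxel passed the test (-0.91, adjusted p = 0.00927).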

How the results depend on the processing

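Calls were followed over 145 gene and comparison pairs. Under other settings 1070 of 1135 values kept their call or lack of one, as did 2339 of 2415 with a library left out. Of the rest, 24 and 45 lost a call, 41 and 31 gained one, and 0 called changes reversed direction. Uncalled values could change sign and still count as kept. Fbxo30 did so for male paclitaxel against PBS, from -0.62 to 0.07 with the GC covariate. Counts of called members moved as follows. Female tumour against PBS had 0 of 5 called, 1 with quantile normalization, the GC covariate, without libraries of GC slope above 0.1 or with only the compared groups, 3 with quality weights, and 0 to 1 with a library left out. Quality weights gave 2 for female 5-fluorouracil against C26 saline (0 called), 4 for male 5-fluorouracil (2 called; 2 to 4 with a library left out), 1 for male cisplatin against paclitaxel (0 called; 0 to 1) and 1 each for the tumour and the paclitaxel interaction with sex (0 called). Female cisplatin against C26 saline (1 called) gave 4 with quality weights, 3 without libraries of high GC slope, 2 with only the compared groups and 0 to 1 with a library left out. With a library left out, male paclitaxel against C26 saline (1 called) gave 0 to 2 and male cisplatin (3 called) 1 to 3. Male 5-fluorouracil against PBS (0 called) gave 1 with the mean filter, the pseudocount or the replicate block, 2 with quality weights and 0 to 3 with a library left out. Male paclitaxel against PBS (3 called) gave 0 without libraries of high GC slope. Male against female C26 saline (2 called) gave 4 with quality weights, the GC covariate or without libraries of high slope, 0 with only the compared groups and 1 to 3 with a library left out. Male against female 5-fluorouracil (2 called) gave 1 with quantile normalization, 0 without libraries of high slope or with only the compared groups and 0 to 3 with a library left out. Male against female paclitaxel (3 called) gave 0 without libraries of high slope or with only the compared groups and 0 to 4 with a library left out, and cisplatin (3 called) 1 with only the compared groups. Leaving out libraries leaves fewer samples, and the cause was not tested elsewhere. Of the relations between members, Fbxo31 with Fbxo21 in females passed (r 0.520) and in males failed (0.314), and Fbxo30 with Fbxo21 in males passed (-0.435), without the 2 farthest libraries.

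The replicate numbers pair libraries by number only. Same-numbered libraries of different groups had a mean correlation of deviations of 0.158 in females (-0.59 to 0.80, 39 of 66 pairs over 0.1) and 0.0746 in males (-0.77 to 0.84, 34 of 72), and 10 of 35 and 9 of 38 libraries correlated best with their own number. The replicate block brought Trim63 over the threshold for male 5-fluorouracil against C26 saline (-1.07, adjusted p = 0.0493) and against PBS (1.38, adjusted p = 0.035), and Fbxo30 for male paclitaxel against PBS (-0.69, adjusted p = 0.0237). No block value exists for male against female groups, because the numbers are nested in sex. Depth limits Fbxo30 most, with as few as 28 estimated counts.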

Other observations

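Transcripts of proteins known as substrates of the 5 ligases were counted as well. Of 22 such genes, 3 rose and 5 fell in tumour-bearing males (median -0.16), and 0 rose and 2 fell in females (median -0.06), where 26.1% and 6.7% of all genes were called. Myl1 and Mylpf, fast myosin light chains bound by MuRF1, fell in males by 1.36 (SE 0.19, limma adjusted p = 7.35e-08) and 0.94 (SE 0.18, adjusted p = 4.45e-05), and Myl1 in females by 0.64 (SE 0.20, adjusted p = 0.0401). Ccnd1, encoding the Fbxo31 substrate cyclin D1, fell in males by 1.47 (SE 0.23, adjusted p = 1.5e-06), while Eid1, whose protein is a substrate of Fbxo21, rose by 0.56 ± 0.11 (adjusted p = 9.08e-05). Against C26 saline, Mylpf rose in males with 5-fluorouracil by 0.88 ± 0.18 (adjusted p = 0.000334), with paclitaxel by 0.65 ± 0.20 (adjusted p = 0.0103) and with cisplatin by 0.70 ± 0.18 (adjusted p = 0.00431). Ligases act on the proteins, which were not measured, and the same 3 drug comparisons share their C26 saline libraries.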
